A study of Drosophila melanogaster with 17 samples.

Results

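Mediator is the large coactivator complex that carries signals from DNA-bound transcription factors to RNA polymerase II. The Mediator genes were taken as the genes whose name in the deposited tables begins with MED and a digit, together with kto, skd, CycC and Cdk8. This gave 29 genes, all present in both the RNA table of 12505 protein-coding genes and the RNA polymerase II (Pol2) table of 13797, out of 13931 genes in either. The rule itself used names only and no measured value, but the set was chosen with earlier results of these data known. The gene ix, which a Release 6 gene table gives the synonym MED29, lies outside the naming rule and was added only as an alternative.

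The values come from ovaries of Drosophila melanogaster females aged 2 to 4 days. The compared groups were cuff mutant and wild-type (wt) ovaries, with 3 RNA-seq and 3 Pol2 ChIP-seq libraries per genotype, each from a separate dissection of about 30 females. The cuff gene encodes Cutoff, which acts with Rhino and Deadlock so that piRNA clusters are transcribed, and the labels name neither the mutant allele nor the genetic background. The series also holds Cutoff ChIP, made with GFP antibodies from a Cuff-EGFP line labelled wt, and input libraries, which were not used here. Each table gives 1 merged value per genotype, called the authors' mean below, so no spread between libraries can be shown for a gene. Replicate error enters only through the p-value of the authors' deposited table, printed to 1 significant digit. A gene is called changed where that p is 0.05 or less.

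Within the complex the head and middle modules contact the polymerase, the tail module receives activators, and MED14 is the backbone that joins them. A separable kinase module holds the kinase Cdk8, its cyclin CycC, and the large proteins encoded by skd (MED13) and kto (MED12), which tie the kinase to the rest. In flies skd and kto act together in development and take part in Wingless target gene activation. Subunits were grouped into these modules from general knowledge of the complex, and sources differ on where some animal-specific subunits sit.

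The germline and follicle cell markers of the ovary were present in both genotypes, and most muscle and follicle cell markers were called higher in cuff. All 6 germline markers (vas, nos, osk, grk, otu and aub) were measured, summing to authors' mean RNA signals of 219157 in cuff and 240038 in wt, and 0 of them were called. Of 6 follicle cell markers 4 were called higher and 1 lower in cuff, with sums of 693312 in cuff and 448810 in wt. Of 6 muscle markers 5 were called higher, with sums of 44403.5 in cuff and 14227.2 in wt. Of the neuron markers 3 of 4 were in the table and 1 was called higher, with sums of 2438.7 in cuff and 857.9 in wt. Of 3 fat body markers 1 was called higher (3795.4 in cuff and 1293.3 in wt), and of 3 hemocyte markers 1 (992.4 in cuff and 266 in wt). Of 4 testis markers 0 were called, with sums of 2179 in cuff and 1312.7 in wt. Over all genes in RNA, 5.5% were called higher and 3.73% lower. With shares this low, 0 called in so short a list does not show that its genes were unchanged. A sum can rest on 1 gene of its list. None of these markers was at 0 in either genotype. Fewer cells of a type and less RNA per cell cannot be told apart in whole ovaries, and the part of these cell types in the Mediator values was not tested. Authors' means summed over the table to 85598452 in cuff and 89336038 in wt for RNA, and to 50036639 in cuff and 51692649 in wt for Pol2. The RNA of the cuff gene had means of 1105 in cuff ovaries and 951 in wt ovaries, which checks nothing while the allele is unknown.

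In RNA, 3 of the 29 Mediator genes changed in cuff ovaries: skd and MED14 rose and MED21 fell, while 26 did not pass. That is 10.3% of the members, against 9.24% of all genes in the table and 12.7% of the 6947 genes within the members' range of levels, so the share is near the background. By direction, 2 members were called higher, where 5.5% of all genes were, and 1 lower, where 3.73% were. The members' median log2 change was -0.17, beside 0.02 over all genes and -0.06 over genes in their level range. The members ran from -0.87 to 1.35 around it, and 12 had a higher and 17 a lower mean in cuff.

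In the kinase module skd rose and the other 3 genes did not pass. The skd transcript had an authors' mean of 39072.7 in cuff and 15296.1 in wt, 2.55-fold higher, and the authors' deposited table lists p = 0.001. Its partner kto had 6426 in cuff and 3263.2 in wt, a ratio of 1.97, with p = 0.06 in the authors' deposited table, just outside the threshold. The kinase gene Cdk8 had 2194.4 in cuff and 3728.8 in wt, a ratio of 0.589, and p = 0.1 in the authors' deposited table. Its cyclin gene CycC had 3934.8 in cuff and 4856.4 in wt, and p = 0.8 in the authors' deposited table. The means of the 2 genes for the large proteins were thus higher in cuff and those of the kinase and its cyclin lower, and of the 4 skd alone passed the test. The ratio of skd to Cdk8 signal was 17.8 in cuff and 4.1 in wt, a difference that has no test of its own.

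The scaffold gene MED14 rose 1.88-fold. Its authors' mean was 7315.5 in cuff and 3886.7 in wt, with p = 0.03 in the authors' deposited table. MED21, a small middle-module subunit that pairs with MED7 in the hinge of the yeast complex, fell to 4790.2 in cuff, against 8738.6 in wt. It was 1.82-fold lower, and the authors' deposited table lists p = 0.04. The calls of MED14 and MED21 ended, and that of skd held, under each of 3 stricter rules. These were a limit of 0.01, which 5.19% of all genes met, at least a 2-fold difference, met by 6.87%, and a second adjustment over all genes, met by 2.81%. After that Benjamini-Hochberg adjustment of the DESeq p in the authors' deposited table, p was 0.0356 for skd, 0.39 for MED14 and 0.478 for MED21.

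**Figure D1:**
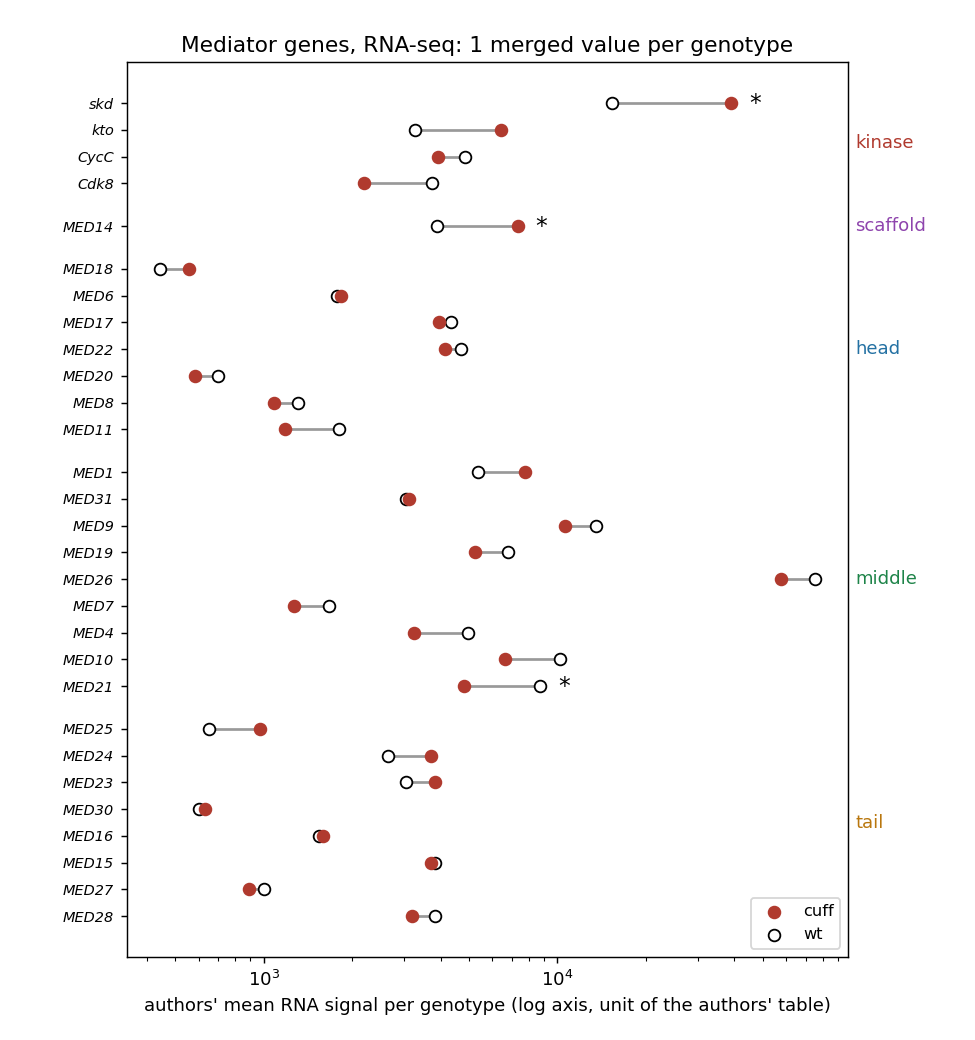
Authors' mean RNA signal of the 29 Mediator genes in cuff (filled) and wt (open) ovaries on a log axis, by module, with 1 merged value per genotype and therefore no error bars. Asterisks mark the 3 genes with a deposited p of 0.05 or less: skd and MED14, higher in cuff, and MED21, lower.

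No head subunit was called in RNA. All 7 had p of 0.3 or more in the authors' deposited table, with log2 changes from -0.61 to 0.34 and a median of -0.17. MED17, the core head subunit that contacts the polymerase, had 3952.4 in cuff and 4348.2 in wt. MED11, which forms a small bundle with MED22 in yeast, had 1184.3 in cuff and 1805.2 in wt. MED18, part of a movable lobe of the head with MED20, had 558.3 in cuff and 441.9 in wt, while MED20 had 584.5 in cuff and 696.1 in wt. MED6 had 1835 in cuff and 1780.3 in wt, MED8 had 1083.4 in cuff and 1309.6 in wt, and MED22 had 4153.2 in cuff and 4679.2 in wt. Within the head, then, 5 of 7 means were lower in cuff, and 0 passed, where 9.24% of all genes did.

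Of the 9 middle subunits 1 was called, MED21, and 7 had a lower mean in cuff. The median log2 change of the 9 middle genes was -0.39. MED1 (7771.3 in cuff and 5378.3 in wt) and MED31 (3120.2 in cuff and 3054.9 in wt) were the 2 with a higher mean. MED1 is the subunit that binds nuclear receptors in mammals. MED10 had 6625.6 in cuff and 10220.1 in wt, with p = 0.1 in the authors' deposited table. MED4 had 3238.4 in cuff and 4958.3 in wt, and MED7, the partner of MED21, had 1267.5 in cuff and 1668.4 in wt. MED9 had 10609.5 in cuff and 13544.7 in wt, and MED19 had 5249.6 in cuff and 6769.9 in wt. These 2 also lay below their wt level without passing. MED26, which in mammals recruits elongation factors, had 57560.8 in cuff and 75635.4 in wt, with p = 0.5 in the authors' deposited table.

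No tail subunit was called in RNA either. Of the 8, 5 had a higher mean in cuff, where 51.1% of all genes did. Their median log2 change was 0.05, beside 0.02 over all genes, of which 9.24% were called. MED25, a target of viral activators in mammals, had 970.9 in cuff and 653.6 in wt, with p = 0.3 in the authors' deposited table. MED24 had 3718.6 in cuff and 2641.4 in wt, and MED23 had 3818.4 in cuff and 3048 in wt. MED15, a partner of Smad proteins, had nearly the same mean in the 2 genotypes, 3706.8 in cuff and 3826.5 in wt. MED16 had 1587.1 in cuff and 1548.1 in wt, MED30 had 631.3 in cuff and 604.2 in wt, MED27 had 890.9 in cuff and 1000.8 in wt, and MED28 had 3210.9 in cuff and 3833.5 in wt. The gene ix had 775.4 in cuff and 995.1 in wt, and p = 0.9 in the authors' deposited table.

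The direction of a member's RNA change went with the length of its gene. Genes were divided by span, start to end with introns, into 5 classes of nearly equal number. Of the 7 members in the 2 longest classes, from 3.17 kb up, 6 had a higher mean in cuff, where 66.6% of all 4946 genes of that length did. The exception was MED26. Of the 16 members in the 2 shortest classes, up to 1.9 kb, 3 had a higher mean in cuff (MED18, MED30 and MED31), where 38.6% of all 4950 genes did. The 6 members between them divided into 3 and 3. Spearman's rho between gene span and log2 RNA change was 0.60 over the 29 members and 0.52 without skd and kto, beside 0.46 over 8511 genes with a mean of at least 50. In Pol2 the same rho was 0.40 over the members and 0.33 without skd and kto, beside -0.061 over 13468 genes with a mean of at least 50. The 2 comparison sets differ, since that limit keeps 8511 of 12366 RNA genes with a span but 13468 of 13648 Pol2 genes. In Pol2, divided into 5 classes of its own, 4 of the 16 members in the 2 shortest classes had a higher mean in cuff, where 61.2% of all such genes did. In the 2 longest classes 5 of 9 members had a higher Pol2 mean in cuff, where 57.6% of all such genes did. These Pol2 shares take no account of level. Over all lengths 58.5% of genes had a higher Pol2 mean in cuff, but 45.3% of genes within the members' range of levels did. Genes are not independent replicates, and these values describe the tables only.

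Set against genes of like length, the called members stood less far out in 2 cases of 3. The rise of skd (34.6 kb) lay at percentile 94.7 of all genes with a mean of at least 50 and at 87.6 of those in its length class. The change of kto (8.33 kb) lay at percentile 89.8 and then at 75.3. The fall of MED21 (1.02 kb) lay at percentile 7.42 and then at 19.3. For MED14 (5.99 kb) the percentile was 88.6 and then 92.3. MED26 (10.5 kb) lay at percentile 25.3 of all such genes and at 8.97 of those in its class. The part of gene length in these values was not tested.

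**Figure D2:**
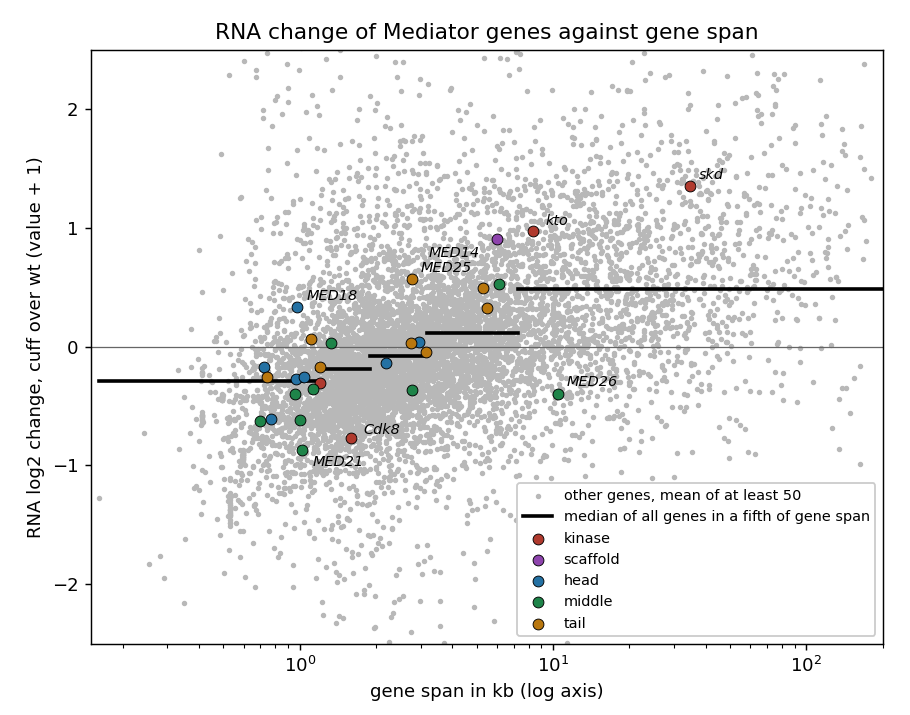
Log2 RNA change, cuff over wt with 1 added to each value, against gene span in kb (log axis) for 29 Mediator genes coloured by module and for other genes with a mean of at least 50 (grey). Black lines are the medians of all genes in 5 classes of span, from -0.29 in the shortest to 0.48 in the longest; 173 grey genes lie outside the axes, and MED26 lies below the line of its class.

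No Mediator gene was called in Pol2, where 1.46% of all genes and 1.64% of the 8492 genes within the members' range of levels were. The lowest p among the 29 was 0.3 in the authors' deposited table, and 27 were listed at 0.5 or more. The count was also 0 under the stricter rules, met by 0.79% of all genes (limit of 0.01), 0.645% (at least 2-fold) and 0.355% (second adjustment). Their log2 changes ran from -0.55 to 0.11 with a median of -0.16, beside 0.08 over all genes and -0.03 over genes in their level range. In 28 of 29 members the change was smaller than 0.5 on the log2 scale in either direction, as it was in 88.4% of genes in their level range. Pol2 signal may hold background, and its part in the size of these changes was not tested. The mean was lower in cuff for 20 and higher for 9, and this split depended on the scaling. It was 17 and 12 with equal table totals. After taking off the median of genes of like level, added after seeing the data, it was 21 and 8. After taking off that of genes of like length it was 27 and 2. With changes centred on all genes with a mean of at least 50, whose median was 0.08, it was 28 and 1.

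For the 3 genes that changed in RNA, the ratio of cuff to wt Pol2 means lay between 0.98 and 1.04, and none passed in Pol2. skd had an authors' mean Pol2 signal of 18631.5 in cuff and 17947.9 in wt, and p = 0.9 in the authors' deposited table. MED14 had 6650.7 in cuff and 6786.8 in wt, and MED21 had 2559 in cuff and 2470 in wt. The near miss kto had 3717.8 in cuff and 3709.3 in wt. The ratio of skd to Cdk8 Pol2 signal was 20.7 in cuff and 20.4 in wt.

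CycC had the largest Pol2 difference of the complex. Its authors' mean was 1208.6 in cuff and 1765.4 in wt, a ratio of 0.685, with p = 0.3 in the authors' deposited table. Its kinase partner Cdk8 had 901.5 in cuff and 880 in wt. The next lowest p belonged to the tail subunits MED27 (1262.4 in cuff and 1638.6 in wt, p = 0.4 in the authors' deposited table) and MED16 (1553 in cuff and 1963.2 in wt, p = 0.5 there). MED9, MED10 and MED22 followed at p = 0.6 in the authors' deposited table, with ratios of cuff to wt of 0.834, 0.782 and 0.787. All 6 had lower means in cuff.

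**Figure D3:**
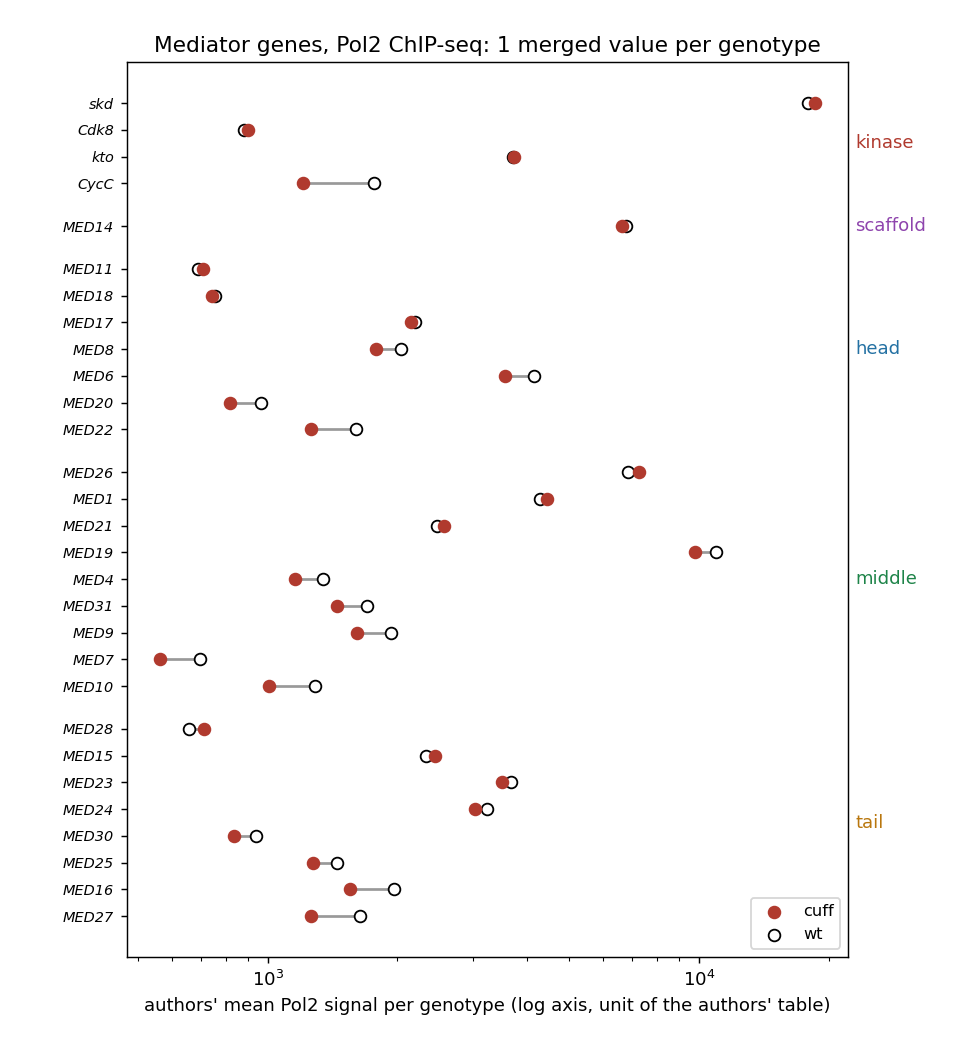
Authors' mean Pol2 signal of the 29 Mediator genes in cuff (filled) and wt (open) ovaries on a log axis, by module, with 1 merged value per genotype. No gene passed a deposited p of 0.05, and the widest gap is that of CycC, at 1208.6 in cuff and 1765.4 in wt.

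RNA and Pol2 means often differed in direction. They moved the same way in 14 of 29 members (3 higher in both assays and 11 lower in both), beside 58.4% of 8454 genes with means of at least 50 in both. No member passed in Pol2, and the signs of small Pol2 changes depend on the scaling. Those of MED14, MED17 and MED18 turned with equal table totals, and those of skd, kto and others with centred changes. Spearman's rho between the 2 log2 changes was 0.16 over the 29 members and 0.27 over the 8454 genes. The RNA libraries and the Pol2 libraries are separate samples, and the difference between the assays has no test here, since values per library are needed for one. The RNA signal per unit of Pol2 signal was 2.1 in cuff and 0.852 in wt for skd. It was 1.1 in cuff and 0.573 in wt for MED14, and 1.87 in cuff and 3.54 in wt for MED21.

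**Figure D4:**
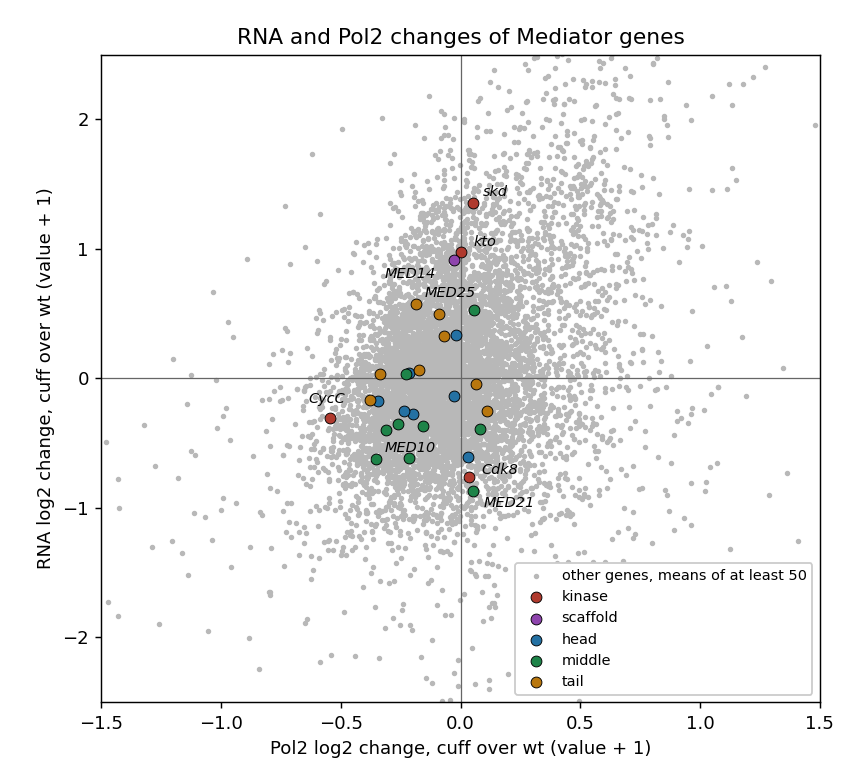
Log2 change in RNA against log2 change in Pol2, cuff over wt with 1 added to each value, for 29 Mediator genes by module and for other genes with means of at least 50 (grey). The members spread over 2.22 log2 units in RNA and 0.657 in Pol2; 171 grey genes lie outside the axes.

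Levels differed widely between subunits. Per kb of gene span, the RNA signal of MED10 was the highest in both genotypes, at 9547 in cuff and 14726 in wt. MED9 is left out of this order, and MED31 is uncertain in it, since each lies wholly within another gene whose reads it may share. MED25 was the lowest, at 351 per kb in cuff and 236 in wt. In wt the order of the leading genes was MED10, MED21, MED26 and MED22. In cuff it was MED10, MED22, MED26 and MED21, and neighbours in these orders cannot be told apart without values per library. Per kb the kinase module genes in cuff against wt had 3274 against 4040 for CycC, 1379 against 2344 for Cdk8, 1129 against 442 for skd and 771 against 391.7 for kto. Gene span counts introns, which lowers the RNA signal per kb of genes with long introns such as skd.

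Pol2 signal per kb spread less, but it may hold background. CG17181, beside MED14, had RNA means of 2.6 in cuff and 1.9 in wt. Its Pol2 means were 1542 in cuff and 1279.2 in wt. A mean of at least 50 was reached by 13614 of 13797 genes in Pol2 and by 8615 of 12505 in RNA. The part of background in the members' Pol2 values, and in ratios taken over them, was not tested. MED19, a middle subunit that works with Hox proteins in flies, was the highest at 3526 per kb in cuff and 3937 in wt. The lowest in either genotype was kto, at 446 in cuff and 445 in wt. Next came MED25 in cuff (461, against 525 in wt), and skd in wt, with 538 in cuff and 518 in wt. MED26 had the most RNA per unit of Pol2 signal, 7.95 in cuff and 11 in wt, and MED6 the least, 0.515 in cuff and 0.43 in wt. Spearman's rho between the 2 assays' levels per kb was 0.53 in cuff and 0.63 in wt over the 29 members, which share the same span in each ratio.

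Some members share sequence with other genes, so their values may hold reads of both. By Release 6 positions 15 of the 29 overlap another protein-coding gene, without regard to strand, and 2 lie wholly within one. MED9 and CG42518 are listed with the same RNA means, 10609.5 in cuff and 13544.7 in wt, and are read as 1 measurement. MED31 lies within slx1, which had 3630.3 in cuff and 3856.5 in wt. Of MED21 25.1% overlaps Set1, a histone methyltransferase gene with RNA means of 17101.3 in cuff and 17498.6 in wt. MED14 overlaps CG13893 over 146 bases and skd overlaps CG12984 over 117, a small part of each.

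None of the measured genes beside the 3 changed members passed the threshold in RNA. Next to skd, CG12984 had RNA means of 89.7 in cuff and 94.4 in wt, and CG10585 had 1962.1 in cuff and 2786.8 in wt. Next to MED21, Set1 had the values given above. Next to MED14, CG13893 had 4341 in cuff and 2990.3 in wt, with p = 0.3 in the authors' deposited table. MED26, on the small, heterochromatin-rich dot chromosome, was looked at after its values were seen. Its neighbours bt, a giant muscle protein gene, and Sox102F, a transcription factor gene, both rose in RNA. For bt the means were 18010.4 in cuff and 4342.8 in wt, and for Sox102F 9147.8 in cuff and 2286.4 in wt, with p = 3e-08 and p = 8e-09 in the authors' deposited table. They rose in Pol2 too. The Pol2 means of bt were 10380.2 in cuff and 6581.5 in wt, with p = 0.02 in the authors' deposited table. Those of Sox102F were 10055.9 in cuff and 5586.5 in wt, with p = 0.0005 in the authors' deposited table. MED26 between them was called in neither assay, with a lower RNA mean in cuff and Pol2 means of 7244.9 in cuff and 6857.1 in wt.

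Among 27 general initiation factors, transcription kinases and cofactors that work with Mediator, 3 rose in RNA, 0 fell and 24 did not pass. That is 11.1% of the list, beside 9.24% of all genes called in either direction and 5.5% called higher. The median log2 change of the list was -0.03, beside 0.02 over all genes. The 3 were nej, the histone acetyltransferase CBP (35124.6 in cuff and 12936.1 in wt), CycT, the cyclin of the elongation kinase Cdk9 (11379.7 in cuff and 4589.8 in wt), and fs(1)h, the BET protein gene (24849.8 in cuff and 12370.5 in wt). Their p in the authors' deposited table was 0.0006, 0.007 and 0.02, and only nej passed with the deposited p adjusted again (p = 0.0262). These genes span 21.6, 6.79 and 23.6 kb. Not all long genes of the list rose: Nipped-B, the cohesin loader gene of 37.3 kb, had 85089.4 in cuff and 119843 in wt, and p = 0.2 in the authors' deposited table.

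The initiation factors and the other transcription kinases stayed short of the threshold. Cdk9, the partner of CycT, had 2449.4 in cuff and 2383.3 in wt, and Cdk7, the kinase of TFIIH, had 5788.2 in cuff and 6541.1 in wt. In Pol2 0 of the 27 were called, where 1.46% of all genes were. Their median Pol2 log2 change was -0.12, beside 0.08 over all genes and -0.03 over genes in the Mediator members' level range. A lower mean in cuff was found in 23, and a higher one in 4 (14.8%). The share with a higher mean was 58.5% of all genes and 45.3% of genes in that level range. No other scaling was applied to the signs of this list. The lowest Pol2 p among the 27 was the 0.3 of TfIIA-S in the authors' deposited table (3126 in cuff and 4197.8 in wt).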

How the data were processed

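The members, gene lists and comparisons were chosen with earlier results of these data known. RNA was rRNA-depleted total RNA, per the labels' protocols. The submitters' processing notes name DESeq 1.16.0, TopHat2 2.0.8, Bowtie2 2.0.0, cutadapt 1.2.1 and genome build dm3, among others. Per the file headers, the authors made both gene tables with DESeq, with pooled dispersions taken from the parametric fit alone. That fit need not show disagreement between libraries of a single gene. The deposited genotype values are a signal, printed to 1 decimal. They are read here as size-factor-scaled reads averaged per genotype, although no header says so. The authors' deposited log2 fold change runs cuff over wt. Whether the deposited p-value was adjusted for multiple tests, how strand and introns were counted and which annotation was used are not given in the sources used here. If that p was already adjusted, the second adjustment is too strict. If it was not, the step called a second adjustment here is the only one. A printed p of 0.05 can stand for slightly more, and no member is listed there.

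Each table holds 1 merged value per genotype, so the planned edgeR fit could not be run. Depth per library and SDs are therefore not given. Ratios are of the authors' means. Log2 changes were taken after adding 1 to each value, and so understate what happens in weakly expressed genes. Gene span, synonyms and gene order came from a RefSeq gene table of Release 6, matched for 12366 RNA genes, 13648 Pol2 genes and all 29 members. No coordinate of it is used with dm3. Members described in full were those past the threshold, the 6 lowest p of each assay, the kinase module and MED14. In the partner list Tfb2 is a synonym of mrn and was counted once. The calculations used Python 3.11.15, pandas 2.3.3 and scipy 1.17.1. Reading of the values, log2 changes, the second adjustment and the calling rule were run on simulated tables with preset changes and p. The length classes, percentiles, overlaps and correlations were not tested in that way. Promoter motifs, sequences and Cutoff peaks at Mediator genes were not analysed here.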

Additional observations from a re-analysis of the deposited data

How the results depend on the processing

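The count of 3 called Mediator genes in RNA became 1, skd, with a p limit of 0.01, with the deposited p adjusted again over all genes, or with at least a 2-fold difference, and stayed 3 with a mean of at least 50 or with ix added. The partner list in RNA gave 2 in place of 3 with a p limit of 0.01 and 1 after the second adjustment. It stayed at 3 with at least a 2-fold difference or a mean of at least 50. For Pol2 both counts were 0 throughout. The RNA median of the members turned to 0.033 after taking off the median of each member's length class, and moved to -0.065 after taking off that of its level class among 10, which was added after seeing the data. By construction the first removes the trend with gene length. All other medians moved by less than 0.1 on the log2 scale, including 14 members overlapped by no other protein-coding gene (-0.25 in RNA), also added after seeing the data. The Pol2 median ran from -0.24 to -0.11 over its alternatives. No paired analysis was possible because the tables hold 1 merged value per genotype, and leaving out libraries, count models, coding length and promoter windows were not run for want of the values.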
